A study of Mus musculus with 2 samples.

Results

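The antioxidant enzymes described here are 10 genes, Sod1, Sod2, Sod3, Cat, Gpx1, Gpx4, Prdx1, Prdx2, Prdx5 and Prdx6, chosen by gene symbol from the 55536 genes of the quantifications. Total RNA was sequenced from the hippocampus of male mice of the strain B6CASTF1/J, a first-generation hybrid of C57BL/6J and CAST/EiJ, at 2 months of age. The tissue label reads "layer of hippocampus" and names no layer. There were 2 libraries, labelled biological replicates 1 and 2, each made from 300 ng of RNA with synthetic ERCC spike-in RNAs added. They formed 1 group with no treatment and no control, so the data allow levels, transcript shares and the spread between libraries, and no test between conditions. The labels give the libraries separate tissue samples with the same strain-level donor entry, so the spread may be partly technical.

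Superoxide dismutases turn superoxide, a by-product of respiration and of oxidases, into hydrogen peroxide. Hydrogen peroxide is then removed by catalase, by glutathione peroxidases, which draw electrons from glutathione, and by peroxiredoxins, most of which draw them from thioredoxin. Neurons use much oxygen and have membranes rich in polyunsaturated lipids, and Gpx4 in particular protects such membranes from lipid peroxidation. Gpx1 and Gpx4 carry selenocysteine, which is read from a UGA codon that elsewhere means stop, and peroxiredoxins react with peroxide through a cysteine.

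Annotated transcripts of a member differ in whether their coding region holds the catalytic codon, so the stretch of coding sequence around it is shown for the reference (mm10) transcript of each of 6 members, 5′ to 3′ on the coding strand, 39 bases each, with the catalytic codon in capitals. The selenocysteine codon of Gpx1-201 (codon 47, chr9:108339433-108339471, plus strand) and of Gpx4-202 (codon 73, chr10:80054719-80054757, plus strand) was placed by the annotation. The cysteine codon of Prdx1-202 (codon 52, chr4:116691805-116691843, plus strand), Prdx2-201 (codon 51, chr8:84970465-84970503, plus strand), Prdx5-201 (codon 96, minus strand) and Prdx6-202 (codon 47, chr1:161247350-161247388, minus strand) was found by the spacing of proline, threonine or serine, and cysteine of the peroxiredoxin active site. A transcript without the codon cannot encode the active enzyme, while incomplete or shortened transcripts can hold it without encoding the whole protein. The Prdx5 stretch crosses an exon junction and lies within chr19:6907662-6908008.
Gpx1: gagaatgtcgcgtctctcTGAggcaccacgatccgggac
Gpx4: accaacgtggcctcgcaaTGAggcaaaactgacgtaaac
Prdx1: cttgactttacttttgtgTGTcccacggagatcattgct
Prdx2: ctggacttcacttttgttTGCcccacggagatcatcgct
Prdx5: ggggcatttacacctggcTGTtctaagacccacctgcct
Prdx6: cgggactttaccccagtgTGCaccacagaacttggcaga
The Prdx1 and Prdx2 stretches matched at 34 of 39 bases. The Gpx1 and Gpx4 stretches matched at 21 of 39, and Prdx5 and Prdx6 at 16 of 39.

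Hippocampal transcripts of most of these enzymes were abundant. All 10 members reached at least 1 TPM in each library (TPM is a level per transcript length, scaled to a fixed sum over all entries), against 12697 of 22015 nuclear protein-coding genes (57.7%). The median of the members' mean TPM was 119, and the median over the detected protein-coding genes was 14.7. In bulk tissue, fewer cells of a type and less RNA per cell cannot be told apart. The members together held 0.237% of the TPM of nuclear protein-coding genes in replicate 1 and 0.248% in replicate 2.

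Levels spanned 93.8-fold between the highest and the lowest member. By mean TPM the order was Gpx4, Sod1, Prdx5, Prdx2, Prdx6, Sod2, Prdx1, Gpx1, Cat and Sod3. Library ranges overlapped for a single pair of neighbours in this order, Sod1 and Prdx5, which therefore did not differ beyond their spread. The authors' intervals within a library, whose level is not given in the sources used here, overlapped also for Gpx4 and Sod1, for Prdx2 and Prdx6, and for Gpx1 and Cat. The widest gap between neighbours, 9.4-fold, lay between Cat and Sod3.

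**Figure D1:**
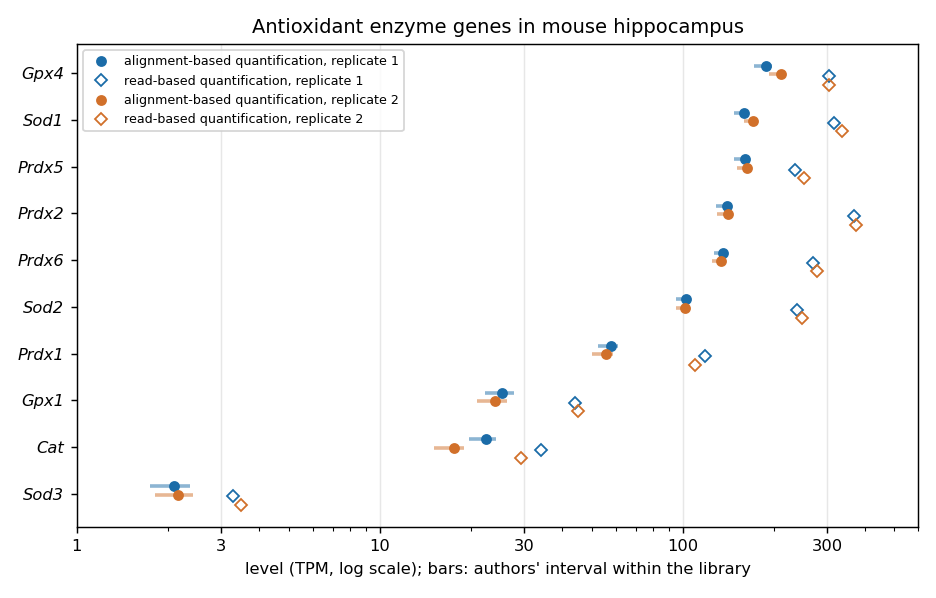
Level of each antioxidant enzyme gene in TPM (log axis) in both libraries, with filled circles for the alignment-based quantification, bars for the authors' interval within a library, and open diamonds for the read-based quantification. Gpx4 stands highest and Sod3 lowest by alignment, and every diamond lies to the right of its circle.

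Each library was quantified 2 ways by the authors, from an alignment to the transcriptome and directly from the reads, and levels above are of the alignment-based kind. Where values stand in pairs, they are those of replicates 1 and 2 in that order. Read-based levels were 1.5-fold (Prdx5) to 2.63-fold (Prdx2) higher, while read-based counts were 0.853 (Sod1) to 1.12 (Sod2) times the alignment-based ones. Nuclear protein-coding genes held 42.1% and 41.2% of all TPM by alignment and 74.2% and 74.4% by the read-based values. The members' share of read-based coding TPM was 0.260% and 0.266%. Among neighbours in the alignment-based order, that of Gpx4 and Sod1 and that of Prdx5 and Prdx2 turned round by the read-based values. Prdx5 moved from rank 3 to rank 6 among the members, below Prdx6 and level with Sod2 at a mean of 243 TPM. In the read-based order Prdx2 came first with 368 TPM in replicate 1 and 373 TPM in replicate 2, ahead of Sod1 with 315 and 335 TPM and Gpx4 with 303 and 305 TPM. Prdx2 had an effective length, the length over which reads are spread, of 1018 bases by alignment and 523 bases by the read-based values in replicate 1, the largest ratio among the members at 1.94 over both libraries.

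Among the superoxide dismutases, RNA of the genes for the cytosolic and mitochondrial enzymes was abundant and that for the extracellular one was scarce. Sod1, the copper and zinc enzyme of the cytosol (ENSMUSG00000022982.10, chr16:90220754-90226329, plus strand), had 159 TPM in replicate 1 and 171 TPM in replicate 2 (165 ± 8.65, SD, n = 2), from 2110 and 2319 expected counts. Sod2, the manganese enzyme of the mitochondrial matrix (ENSMUSG00000006818.5, chr17:13006846-13040063, plus strand), had 103 and 102 TPM (102 ± 0.382, SD, n = 2). Sod3, which is secreted and binds the extracellular matrix (ENSMUSG00000072941.5, chr5:52363791-52371418, plus strand), had 2.1 and 2.16 TPM (2.13 ± 0.0424, SD, n = 2) from 172 and 182 counts. The libraries were close for each of the 3 genes, and the 3 ranges did not overlap. By rank among the 12697 detected protein-coding genes, Sod1 stood at 374, Sod2 at 780 and Sod3 at 11749.

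The dismutases also differed in how their RNA was divided among annotated transcripts. By TPM Sod1 was almost wholly Sod1-201, the coding transcript, with 98.5% and 98.6%, and Sod3 has a single annotated transcript, Sod3-201. By counts Sod1-202, which keeps an intron and is 3970 bases long, held 9.64% and 8.9% of Sod1. The read-based values gave Sod1-202 15.9% and 15.5% of Sod1 counts. Sod2 was split. Sod2-207, a processed transcript without an annotated coding region, held 40.9% and 38.9% of Sod2 TPM, and Sod2-201, the coding transcript of 5861 bases, held 37.5% and 36.0%. Sod2-204, which keeps an intron, held 16.9% and 19.2%, and 18.8% and 15.4% by the read-based values. By counts the order was the other way, with 77.8 ± 0.213% of Sod2 counts on protein-coding transcripts, all on Sod2-201, and 15.2 ± 0.131% on Sod2-207 (SD, n = 2), which is 1138 bases long. Of the 31-base words of Sod2-207, 2.44% occur in no other annotated transcript of the antioxidant enzyme genes and are called its own here. This definition leaves out transcripts of other genes, in which an own word can still occur. The read-based values placed 32.2% and 29.6% on Sod2-207 and 26.1% and 24.6% on Sod2-201. They also gave Sod2-205, an incomplete coding transcript of 451 bases, 19.4% and 24.4%, where the alignment listed it at 0, which allows up to 0.0469% and 0.0475% of Sod2 counts. A limit from a count of 0 covers counting error only.

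Catalase, the haem enzyme of peroxisomes, was among the lower members and differed most between the libraries by TPM. By TMM-scaled counts the log2 ratio of replicate 2 over replicate 1 was -0.12 for Cat, smaller in size than the 0.15 of Sod1. Cat (ENSMUSG00000027187.10, chr2:103453849-103485160, minus strand) had 22.5 TPM in replicate 1 and 17.6 TPM in replicate 2 (20.0 ± 3.49, SD, n = 2). The authors' interval ran from 19.7 to 24.2 in replicate 1 and from 15.1 to 19.0 in replicate 2, and the intervals did not overlap. Its counts were 948 and 865. The gap in TPM lay mostly in the short transcript: Cat-202, which holds 33.4% of the codons of the full enzyme, had 7.83 and 3.64 TPM, and Cat-201, which encodes the full enzyme, had 14.7 and 13.9 TPM. Cat-202 thus took 34.8% and 20.7% of Cat TPM, and by the read-based values 29.4% and 22.3%. By counts it held 12.6% and 6.61% of Cat by alignment and 7.42% and 5.28% by the read-based values. The authors' intervals of Cat-202 overlapped, at 5.24 to 10.2 TPM in replicate 1 and 1.34 to 5.68 TPM in replicate 2. Of its words, 2.67% were its own.

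Gpx4, the glutathione peroxidase that reduces lipid hydroperoxides in membranes and restrains ferroptosis, had the highest level of all members by alignment. By the read-based values it had rank 3. Its protein-coding transcripts alone had 144 and 136 TPM by alignment, below those of Sod1 (156 and 169 TPM) and Prdx5 (159 and 162 TPM). Gpx4 (ENSMUSG00000075706.10, chr10:80047166-80056439, plus strand) had 189 TPM in replicate 1 and 211 TPM in replicate 2 (199.9 ± 15.4, SD, n = 2), rank 269 among detected protein-coding genes. Gpx1, which reduces hydrogen peroxide in cytosol and mitochondria (ENSMUSG00000063856.7, chr9:108338903-108340343, plus strand), had 25.3 and 24.1 TPM (24.7 ± 0.863, SD, n = 2), rank 4181. Both libraries of Gpx4 were above both of Gpx1.

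Annotated coding transcripts that keep the selenocysteine codon shown above held 76.2% of Gpx4 TPM in replicate 1 and 64.4% in replicate 2. Gpx4-202, which encodes the reference protein, had 93.9 and 95.5 TPM, or 49.7% and 45.3%. Gpx4-207 had 42.4 and 30.3 TPM. Gpx4-201 starts in another first exon, which lies in the first intron of Gpx4-202, and had 7.68 and 10.1 TPM. A nuclear GPX4 form known from sperm begins in such an alternative exon. The read-based values gave Gpx4-201 33.5% and 17.6% of Gpx4 TPM, Gpx4-202 65.6% and 82.4%, and listed Gpx4-207 at 0, so the division among the 3 coding transcripts differed between quantifications while their sum in the read-based values was 99.1% and 100%.

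The remaining Gpx4 TPM was almost all on Gpx4-203, a transcript of 280 bases annotated as retaining an intron, with 43.3 TPM in replicate 1 and 73.7 TPM in replicate 2. It begins inside an intron near the 3′ end of the gene, and its first 60 bases (chr10:80055998-80056057, plus strand) are shown with the 42 intronic bases in capitals and the exon that follows in lower case.
Gpx4-203: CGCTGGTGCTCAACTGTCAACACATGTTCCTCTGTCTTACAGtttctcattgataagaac
Reads that overlap the capitals separate Gpx4-203 from spliced Gpx4 RNA, and 16% of its words were its own. It held 22.9% and 35.0% of Gpx4 TPM by alignment and 8.56 ± 3.10% of Gpx4 counts (SD, n = 2). The read-based values listed it at 0 in both libraries, which allows up to 0.0963% and 0.0946% of the counts of the gene.

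Gpx4 also has a near-identical copy, Gpx4-ps2, a transcribed pseudogene on the same chromosome that shares 89.1% of its words with Gpx4. Of the words of Gpx4, 38.9% occur in other genes. The alignment placed 276 and 243 counts on Gpx4-ps2 (18 and 15.4 TPM), and the read-based values placed 0 there. How reads were divided between the pair is uncertain, and adding the copies named after Gpx4 brought its mean to 217 TPM.

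For Gpx1, a coding transcript that lacks the selenocysteine codon was estimated at about the level of the full one. Gpx1-204, whose annotated coding region holds 72.1% of the reference codons and starts after the TGA shown above, had 12.7 and 10.4 TPM. Gpx1-201, the full coding transcript, had 12.3 and 11.0 TPM. Gpx1-204 was the higher in replicate 1 and Gpx1-201 in replicate 2. The read-based values favoured Gpx1-201, with 72.5% and 66.4% of Gpx1 TPM, over Gpx1-204, with 26.5% and 28.1%. Gpx1-202, which also lacks the codon, was listed at 0 in replicate 1 and held 11.3% of Gpx1 TPM in replicate 2 by alignment. A 0 in replicate 1 allows up to 0.693% of Gpx1 counts. Of the words of Gpx1-204, 3.37% were its own, and no word of Gpx1 occurred in another gene.

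**Figure D2:**
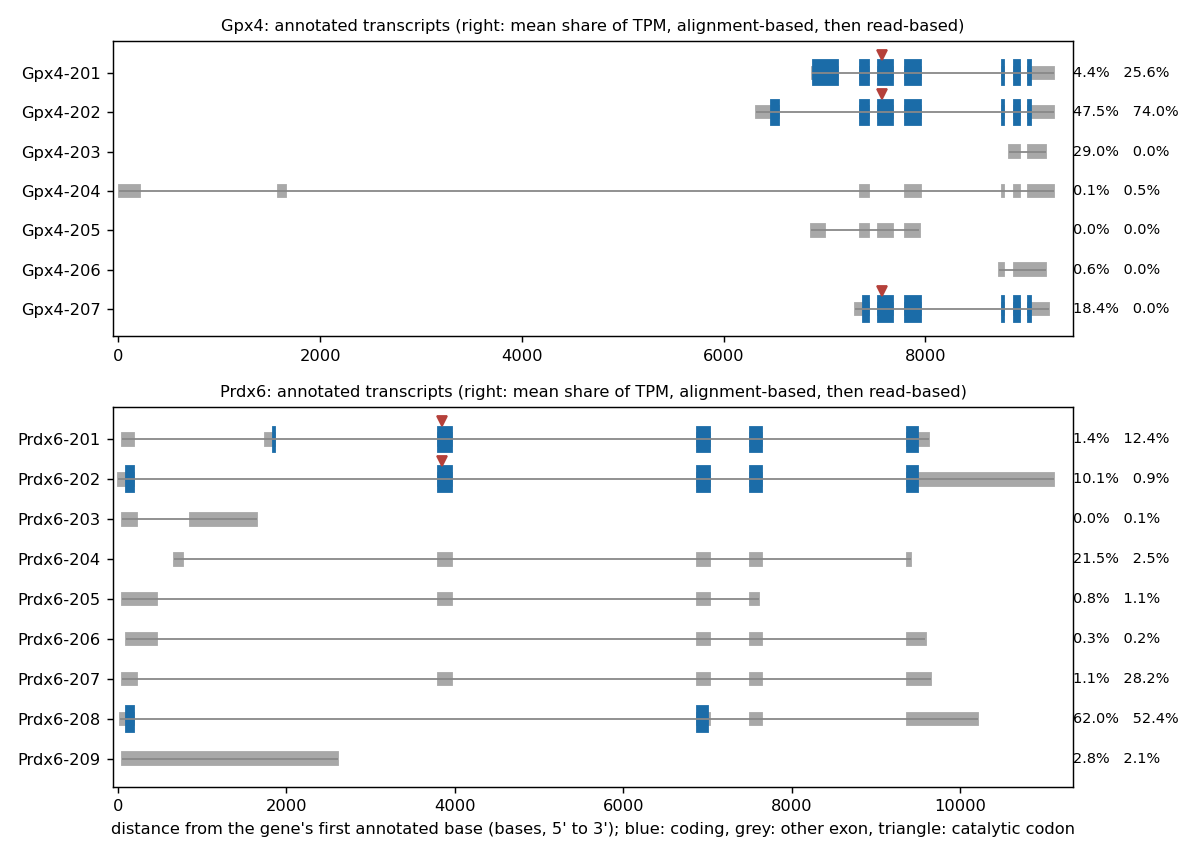
Annotated transcripts of Gpx4 and Prdx6 drawn to scale, with distance from the first annotated base of the gene in bases (5′ to 3′), blue coding parts, grey other exon parts and a triangle at the catalytic codon. The columns at the right give each transcript's mean share of the gene's TPM by alignment and then by the read-based values. Prdx6-208, with 62.0% and 52.4%, skips the exon that holds the catalytic codon, and Gpx4-203 consists of the last part of the gene only.

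Of the peroxiredoxins, 3 stood at similar high levels by alignment and Prdx1 was lower. The read-based means were further apart, with 371 TPM for Prdx2, 274 for Prdx6, 243 for Prdx5 and 114 for Prdx1. Prdx5, found in mitochondria, peroxisomes and cytosol (ENSMUSG00000024953.17, chr19:6906697-6910106, minus strand), had 161 TPM in replicate 1 and 164 TPM in replicate 2 (162 ± 2.07, SD, n = 2). Prdx2, a cytosolic enzyme recycled by thioredoxin and abundant in red blood cells (ENSMUSG00000005161.15, chr8:84969587-84974834, plus strand), had 140.3 and 141 TPM (141 ± 0.799, SD, n = 2). Prdx6, which works with a single cysteine and glutathione (ENSMUSG00000026701.15, chr1:161240112-161251219, minus strand), had 136 and 134 TPM (135 ± 1.43, SD, n = 2). Prdx1, the cytosolic relative of Prdx2 (ENSMUSG00000028691.12, chr4:116685544-116700822, plus strand), had 58.2 and 55.7 TPM (56.9 ± 1.77, SD, n = 2). By TPM the libraries lay closer for Prdx2 than for the other 3 peroxiredoxins, and the 4 ranges did not overlap. Spike-in-scaled counts and read-based TPM also put Prdx2 closest. By TMM-scaled counts Prdx1 was closer, with a log2 ratio of 0.00015 against 0.056 for Prdx2.

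Most Prdx6 RNA was assigned to a transcript that does not encode the enzyme. Prdx6-208, annotated as a target of nonsense-mediated decay, skips the exon with the catalytic TGC and keeps 13.8% of the reference codons. It had 79.9 and 87.6 TPM. These were 58.6% and 65.3% of Prdx6 TPM, and the read-based values gave 50.7% and 54.0%. Its share of counts was 62.8 ± 3.99% by alignment and 61.0 ± 3.03% by the read-based values (SD, n = 2). The 2 annotated coding transcripts, both with the catalytic codon, together had 16.2 and 15.0 TPM, or 11.9% and 11.2% of Prdx6 TPM. Prdx6-202, the full coding transcript, held 10.9% and 9.29% by alignment and 1.18% and 0.699% by the read-based values, which instead gave 9.96% and 14.8% to Prdx6-201. The processed transcripts without a coding region held most of the rest, 26.5% and 20.8%, with Prdx6-204 leading by alignment (24.8% and 18.2%) and Prdx6-207 by the read-based values (33.3% and 23.2%). Of the words of Prdx6-208, 2.29% were its own.

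By TPM Prdx2 carried a large share on a transcript that keeps an intron, and by counts that share was smaller. Prdx2-205, of 549 bases, held 29.1% of Prdx2 TPM in replicate 1 and 32.1% in replicate 2, and 39.2% and 43.9% by the read-based values. Of Prdx2 counts it held 12.84% and 14.22% by alignment and 15.97% and 18.03% by the read-based values. Prdx2-201 held 56.02% and 63.18% of the alignment-based counts. Transcripts with the catalytic TGC held 67.9% and 64.4% of Prdx2 TPM by alignment. Among these, Prdx2-201 led with 40.7% and 45.8%, and the read-based values listed it at 0 and gave 30.9% and 26.9% to the incomplete Prdx2-204. Prdx2-208 held 20.3% and 11.4% by alignment, and Prdx2-202 held 10.6% and 14% by the read-based values. No word of Prdx2-201 is its own. Prdx2-201, Prdx2-202 and Prdx2-208 have the same annotated coding region.

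Prdx1 and Prdx5 were nearly all protein-coding by annotation, and the catalytic codon was present in 98.7% and 97.5% of Prdx1 TPM and in 98.9% and 98.9% of Prdx5 TPM. These shares include incomplete and shortened coding transcripts and are not shares of RNA for the whole enzyme, which appear as the reference coding region in the plot of transcript classes. Which coding transcript led depended on the quantification. For Prdx1, the incomplete Prdx1-205 led by alignment with 42.6% and 40.9%, and the reference transcript Prdx1-202 led by the read-based values with 66.8% and 78.9%, while the read-based values listed Prdx1-205 at 0. By alignment counts Prdx1-204, which has the full coding region, led with 64.9% and 62.7%, against 20.2% and 19.2% for Prdx1-205, and it held 31.9% and 31.1% of Prdx1 TPM. The incomplete Prdx1-201 held 14.5% and 5.32% by alignment and was listed at 0 by the read-based values, and the incomplete Prdx1-203 held 13.2% of read-based TPM in replicate 1 only. For Prdx5, the incomplete Prdx5-205 led by alignment with 39.8% and 40.8%. The read-based values put 51.1% and 50.3% on Prdx5-203 and 47.3% and 47.7% on the reference transcript Prdx5-201. By alignment Prdx5-203, which holds 74.8% of the reference codons, had 20.7% and 21.5%, and Prdx5-201 had 17.2% and 18.4%. Prdx5-204 held 21.3% and 18.2% by alignment and 0.393% and 0.347% by the read-based values. A read-based 0 of Prdx1-205 or Prdx1-201 allows up to 0.207% and 0.212% of Prdx1 counts.

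**Figure D3:**
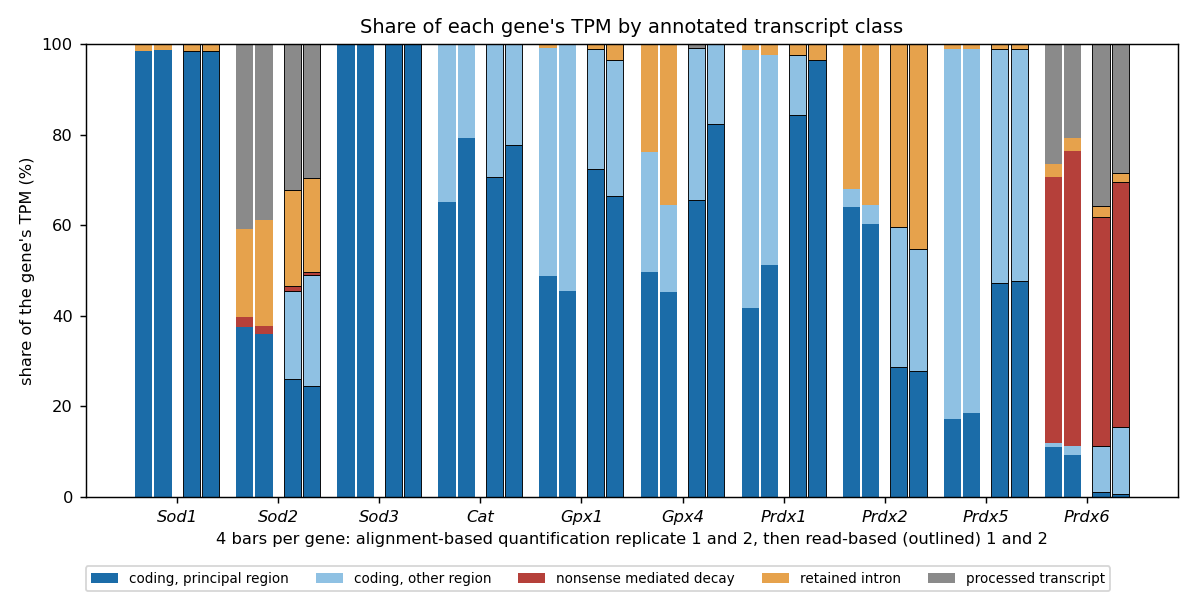
Share of each gene's TPM (%) in classes of annotated transcript, with 4 stacked bars per gene: alignment-based replicate 1 and 2, then read-based replicate 1 and 2 (outlined). Dark blue marks transcripts with the reference coding region and light blue other coding transcripts. Sod1 and Sod3 are almost wholly dark blue, Prdx6 is mostly red (nonsense-mediated decay) with 58.6% and 65.3% by alignment, and orange (retained intron) appears for Gpx4 by alignment only.

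Several members share sequence or a locus with other genes, which bears on their counts. Sod1 overlaps Scaf4, Prdx2 overlaps Rnaseh2a and Junb, and Prdx5 overlaps Trmt112, each on the opposite strand. Whether reads were counted by strand is not given in the sources used here, so reads of these pairs may not have been told apart. In 26.6% of its words Sod2 matched other genes, and Prdx1 did in 15.2%. None of the words of Cat, Gpx1 or Prdx5 occurred in another gene.

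Between the libraries the members differed little. With a call set at a 2-fold TPM ratio either way, among genes that had 50 or more counts in each library, 0 of 10 members were called, and the background was 0.273% (38 of 13916 genes). Under TMM-scaled counts (0.115% of genes), spike-in-scaled counts (0.122%) and read-based TPM (0.33%), 0 members were called as well. All 10 members passed that count minimum. With 1 library on each side there is no replicate check and no p-value. The median log2 ratio of replicate 2 over replicate 1 was 0.00 over the members and -0.04 over all genes counted, whose SD was 0.20. At 1.5-fold also 0 members were called, against 1.79% of genes.

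Cat and Gpx4 lay at the ends of the members' range. Cat had a log2 TPM ratio of -0.36 and Gpx4 of 0.16, and both ratios lay more in the effective length, which follows the transcripts assigned, than in the counts. For Cat the log2 ratio of counts was -0.13 and that of effective length 0.19. For Gpx4 the log2 ratio of counts was 0.05 and that of effective length -0.15, and its protein-coding transcripts alone had a log2 ratio of -0.08. Ratios of TPM, of counts scaled by TMM, of counts scaled by spike-ins and of read-based TPM were all above 0 for Sod1 (0.08 to 0.15), Sod3 (0.03 to 0.09) and Prdx5 (0.03 to 0.10). They were all below 0 for Cat (-0.36 to -0.12), and the sign of the other 6 members depended on the scaling. Counts of the members varied between libraries by 2.7 times sampling noise (chi-square per degree of freedom, 10 degrees), and all genes by 4.09 times.

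**Figure D4:**
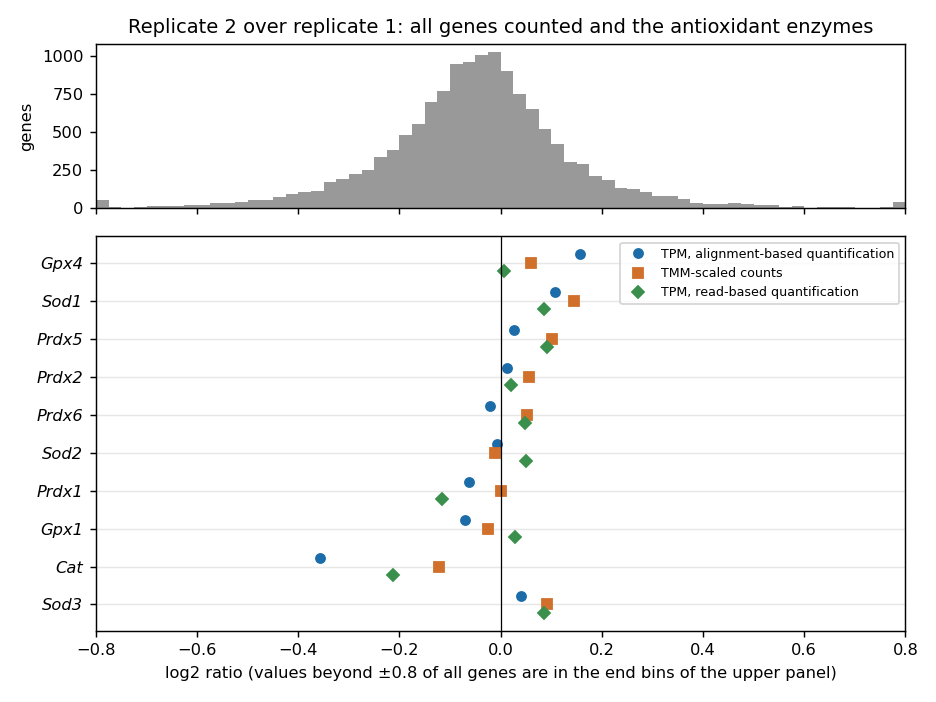
Upper panel, number of genes by log2 TPM ratio of replicate 2 over replicate 1; lower panel, the same ratio for the 10 antioxidant enzymes (circles), with ratios of TMM-scaled counts (squares) and of read-based TPM (diamonds). By TPM the members lie between -0.36 (Cat) and 0.16 (Gpx4). Of all genes counted, 5.3% lie below Cat and 89.4% below Gpx4.

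Depth was close in the libraries, and markers of the main hippocampal cell types were present in both. The total expected count was about 31422800 in replicate 1 and 31303000 in replicate 2. All markers of neurons (6 of 6), astrocytes (5 of 5), oligodendrocytes (5 of 5), microglia (5 of 5) and endothelial cells (4 of 4) were detected, led by Hpca with 1059 and 1029 TPM. Red blood cell markers (5 of 6 detected) summed to 377 and 420 TPM, and their part in the levels of Prdx2 and Cat, both abundant in red blood cells, was not tested. Choroid plexus markers (2 of 4 detected) summed to 14.9 and 27.4 TPM, of which Ttr gave 10.6 and 23.1 TPM.

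Other members of the same families were lower than most of the 10. Of 8 further glutathione peroxidase and peroxiredoxin genes, 5 were detected, and the median over all 8 was 1.87 TPM. Prdx3, the mitochondrial peroxiredoxin, led with 30.6 and 31.6 TPM in replicates 1 and 2. Prdx4, of the endoplasmic reticulum, had 6.18 and 6.5 TPM. Gpx8 had 3.03 and 3.21 TPM, Gpx7 had 2.06 and 2.44 TPM, and the secreted Gpx3 had 1.58 and 1.39 TPM. Gpx2 was below detection, and Gpx5 and Gpx6 were listed at 0 by alignment, which in replicate 1 allows up to 0.0847 and 0.165 TPM.

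All genes of the lists for thioredoxin and glutaredoxin, for glutathione supply, and for metal delivery and selenium use were detected. All 14 genes of the thioredoxin and glutaredoxin list were detected, with a median of 20.8 TPM, led by the mitochondrial thioredoxin Txn2 (55.3 and 51.0 TPM), Glrx2 (43.5 and 44.6 TPM) and the cytosolic thioredoxin Txn1 (39.4 and 39.1 TPM). All 7 genes of glutathione supply were detected, with a median of 18.8 TPM. Here Slc3a2, the partner of the cystine carrier, had 61.5 and 62.1 TPM, and Slc7a11, the carrier itself, had 9.88 and 9.6 TPM. Gclc, the catalytic subunit of the first enzyme of glutathione synthesis, had 18.8 TPM in both libraries, and Gsr, which regenerates glutathione, had 13.2 and 14.7 TPM. Glutathione synthetase, Gss, had 10.4 and 9.64 TPM, and Ggt7, of the gamma-glutamyltransferase family, had 46.6 and 47.1 TPM. Among 10 genes of metal delivery and selenium use, all were detected, and Selenop, the selenium transport protein, led with 119 and 115 TPM. The selenoprotein P receptor Lrp8 had 34.3 and 35.3 TPM and the copper chaperone Atox1 had 37.6 and 37.0 TPM.

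Regulators and producers were lower. Of 8 genes of the Nrf2 list, 7 were detected, with a median of 4.21 TPM. Nfe2l2, which encodes Nrf2, had 5.54 and 4.07 TPM, and Keap1, which holds Nrf2 inactive, had 23.1 and 23.9 TPM. The Nrf2 targets Nqo1 and Hmox1 had 2.36 and 2.26 TPM and 2.48 and 2.38 TPM. Of the small Maf partners of Nrf2, Mafg had 29.2 and 25.7 TPM, Mafk had 3.75 TPM in both libraries and Maff, at 0.73 and 0.42 TPM, was not detected. The repressor Bach1 had 4.61 and 4.74 TPM. Of 10 genes for producers of superoxide or hydrogen peroxide, 6 were detected, with a median of 3.37 TPM. Among them, the monoamine oxidase genes Maob and Maoa had 7.9 and 7.35 TPM and 7.06 and 6.67 TPM. The NADPH oxidase genes Cybb, Nox1 and Nox4 were not detected by alignment. For Nox4 the call turned with the quantification, with 0.11 and 0.02 TPM by alignment and 2.99 and 2.49 TPM by the read-based values. The NADPH oxidase subunit genes Cyba and Ncf1, named after their values were seen, were detected with 4.07 and 4.23 TPM and with 2.94 and 2.23 TPM. No gene of these 6 lists that passed the count minimum was 2-fold apart between the libraries.

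**Figure D5:**
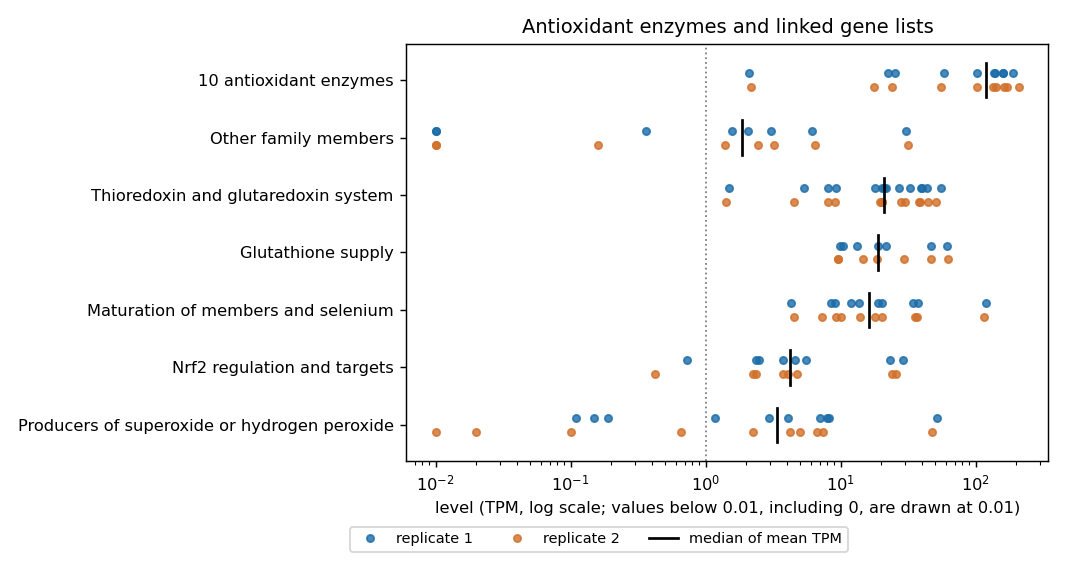
Level in TPM (log axis) of each antioxidant enzyme and of each gene in the linked lists, with a point per library and a bar at the median of mean TPM over the listed genes; the dotted line marks 1 TPM. The 10 enzymes have a median of 119 TPM, and the medians of the linked lists lie between 1.87 and 20.8 TPM.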

How the data were processed

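Values deposited for each library were of 2 kinds. Alignment-based gene and transcript values came from reads aligned to the transcriptome, and read-based transcript values came from the reads themselves, both on mm10 with GENCODE M21, per the deposited listings. Per the file headers, the columns are those of RSEM and of kallisto. Which programs and versions were run is not given in the sources used here. The deposited expected counts are estimated read numbers and need not be whole. The deposited TPM values are scaled to a fixed sum over all entries, spike-ins included. The authors' percent of each transcript within its gene was recomputed here from TPM, since only 1 kind of value has it. Read-based gene values are sums over the transcripts of a gene. CAST/EiJ reads were placed on a C57BL/6J reference, and the effect was not measured.

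Detection meant 1 TPM or more in each library. Ratios used genes with a count of at least 50 in both. TMM factors (edgeR 4.0.16, R 4.3.3) were computed on rounded counts and tested on simulated data. Sequences and 31-base words were read from the mm10 reference and its annotation with Biopython 1.88. Values are means ± SD over 2 libraries, and no p-values were computed. Named were all 10 members, transcripts with at least 5% of a gene's TPM in any quantification, and, in each linked list, the 3 highest genes, lists of at most 8, undetected genes and genes 2-fold apart. Some genes that this rule names are not reported here. The members and lists were chosen with earlier results of these data known.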

Additional observations from a re-analysis of the deposited data

How the results depend on the processing

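The members' median TPM was 119 as reported and 243 by the read-based values, 285 when TPM was rescaled over nuclear protein-coding genes, and 116 by the authors' posterior mean TPM; adding near-identical copies changed it by less than the spread between libraries. Leaving out a replicate gave a median of 118 to 119, 10 to 10 members detected, 8 to 10 members at the same rank and 9 to 10 members with the same leading transcript. In the read-based order, 5 of 10 members kept their rank. The number detected was 10 at a TPM of at least 0.5 and 9 at a TPM of at least 5. The number of members 2-fold apart stayed at 0 under TMM, spike-in scaling, the read-based values, a count minimum of 10, no minimum, log2(TPM + 1) and a 1.5-fold limit. No paired analysis was possible because the libraries form a single group. The alternative that sums genes sharing at least 50% of their words with a member was chosen after seeing the data.

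The precision of each level is limited by 2 libraries, and many transcripts have few words of their own.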

Other observations

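Among the linked genes, 2 that differed between the libraries in TPM were singled out after their values were seen. Gclm, the regulatory subunit of the first enzyme of glutathione synthesis, had 21.7 TPM in replicate 1 and 29.4 TPM in replicate 2. Its counts were close, at 1249 and 1277, and its read-based TPM was higher with a smaller ratio, at 95.3 and 109. Xdh, the xanthine oxidoreductase gene, had 8.23 TPM in replicate 1 and 4.98 TPM in replicate 2. Its counts were 355 and 276, and its read-based TPM was 12.9 and 7.36. Neither reached a 2-fold difference, and there is no replicate check. Ccs, the copper chaperone of Sod1, was likewise singled out and was steady, with 13.8 TPM in replicate 1 and 13.9 TPM in replicate 2.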
